A study of Mus musculus with 4 samples.

Results

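The genes described are 39 interferon-stimulated genes of the mouse, measured in single leukocytes sorted from the epithelium of 4 digestive tissues. They are a list chosen by name, of 16500 gene symbols listed in any of the 4 libraries. All 39 were listed in stomach, small intestine and colon, and 37 in cecum, where Iigp1 and Lgals3bp were not listed. Each library came from 1 tissue of uninfected C57BL/6 mice (stomach, small intestine, cecum or colon), with no treatment, genotype change or age named in the labels. The cells were live leukocytes bearing CD45.2, the pan-leukocyte surface protein, and were read with droplet 3′ sequencing. The extraction protocol mentions only colons in all 4 records, so the tissue labels were taken as given. There was 1 library per tissue: tissue, animal, library and sequencing run cannot be told apart, the intervals below cover counting error only, and no p-value was computed between tissues.

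Interferons are secreted proteins that warn cells of infection. Type I interferons (alpha and beta) and type III interferons act through a complex that holds STAT2 and IRF9 and binds the interferon-stimulated response element (ISRE). Interferon gamma, made by T and NK cells, acts mainly through gamma-activated sites (GAS). The genes switched on include RNA sensors, enzymes that block viral RNA and translation, large GTPases that attack vacuoles of intracellular microbes, and factors such as Irf7 and Usp18 that amplify or dampen the response. Intraepithelial T cells lie against the epithelium and hold a large share of γδ T cells, which carry the Trdc-encoded receptor chain.

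Promoter sequences were available for 31 of the 39 genes in RefSeq (GRCm38.p6; 250 bases before to 50 after a start). The ISRE core was searched as GAAANNGAAA on both strands, with overlapping matches counted separately. It was found in 18 of the 31 member genes (58.1%), against 1079 of 27025 genes in the whole table (3.99%). The GAS core, TTCNNNGAA, which is its own reverse complement, was found in 9 of 31 (29%) against 9.55% of all genes. The 2 motifs were counted independently of each other. The following stretches are the 160 bases before the start of 4 members on which the results turn. Each is written 5′ to 3′ on the gene's own strand, with the ISRE core in capitals on either strand.
Ifit1 (chr19:34640729-34640888, plus strand): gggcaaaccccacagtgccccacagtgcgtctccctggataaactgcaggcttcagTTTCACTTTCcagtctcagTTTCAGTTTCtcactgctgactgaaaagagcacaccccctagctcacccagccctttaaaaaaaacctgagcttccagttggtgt
Isg15 (chr4:156200819-156200978, minus strand): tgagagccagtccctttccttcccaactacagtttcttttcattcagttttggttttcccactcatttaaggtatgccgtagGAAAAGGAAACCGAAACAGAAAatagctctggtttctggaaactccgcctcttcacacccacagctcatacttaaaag
Gbp2 (chr3:142620503-142620662, plus strand): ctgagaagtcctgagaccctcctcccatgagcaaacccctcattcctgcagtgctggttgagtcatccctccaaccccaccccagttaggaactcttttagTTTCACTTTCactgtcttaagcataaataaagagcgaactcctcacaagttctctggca
Rsad2 (chr12:26456453-26456612, minus strand): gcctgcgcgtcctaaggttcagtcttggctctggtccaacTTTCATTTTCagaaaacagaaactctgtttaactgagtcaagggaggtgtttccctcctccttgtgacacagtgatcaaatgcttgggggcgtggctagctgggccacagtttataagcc
The window of Ifit1 holds 2 copies, that of Isg15 holds 3 overlapping copies, and those of Gbp2 and Rsad2 hold 1. Ifit3 and Oas1a also have 2 copies each, in windows whose RefSeq start lies inside the gene's span, and are not printed. The window of Irf7 holds neither motif. A match is a run of letters and not a measured binding site.

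Ifit1, Ifit2 and Ifit3 lie close together on chromosome 19 (34550550 to 34650009 from the start of Ifit2 to the end of Ifit1, GRCm38.p6). Gbp2, Gbp3 and Gbp7 are neighbours on chromosome 3, and Slfn1, Slfn2, Slfn5 and Slfn8 on chromosome 11. These families, the Oas genes and the immunity-related GTPases (Igtp, Irgm1, Ifi47, Iigp1) have near-identical relatives, so how reads were split within a family is uncertain.

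After the removal of barcodes with under 200 genes, 14373 cells remained (3197 to 4244 per library; 8568438 to 12988676 UMIs, unique molecules, per library; median 1707 to 2986 UMIs per cell). Cells were gated on marker UMIs that include no member. T cells carried at least 2 UMIs of Cd3d, Cd3e and Cd3g and 1 of a receptor constant region, and were divided into Trdc-positive cells, Cd8a-positive cells without Trdc, and other T cells. Stomach held 50, 50 and 174 of these, small intestine 1672, 541 and 222, cecum 513, 1106 and 1753, and colon 921, 1488 and 927. T cells were thus 8.57% of the stomach library but 76.8% to 88.7% of the others. T-cell genes outside the gate (Cd2, Lck, Skap1, Lat) were detected in all 12 T-cell sums. The libraries shared 1 to 6 cell barcodes per pair. UMIs were summed over the cells of a gate and library and are given as CPM, that is, scaled to a common total. Each has a 95% exact interval, which takes UMIs as independent and leaves out the spread between cells. A low sum cannot tell fewer expressing cells from less RNA per cell.

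In all 4 tissues the members together took a small share of the T-cell transcriptome, and a larger one in stomach than in colon. The 37 members listed in every library summed to 4183 CPM (4040–4330) in stomach T cells, 2770 CPM (2729–2810) in small intestine, 2142 CPM (2107–2177) in cecum and 2061 CPM (2034–2087) in colon. The order was the same within other T cells, at 4599, 3912, 2253 and 2126 CPM. Trdc-positive cells were closer together, at 2874, 2605, 2135 and 2084 CPM. There the intervals of stomach and small intestine overlapped, as did those of cecum and colon. Cd8a-positive cells stood at 4029, 2877, 1991 and 2012 CPM, where cecum and colon had overlapping intervals. Irf1, a transcription factor induced by interferon gamma, gave the most member UMIs in T cells of small intestine, cecum and colon, and Ifi27l2a, a mitochondrial and nuclear-envelope protein gene, in stomach.

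**Figure D1:**
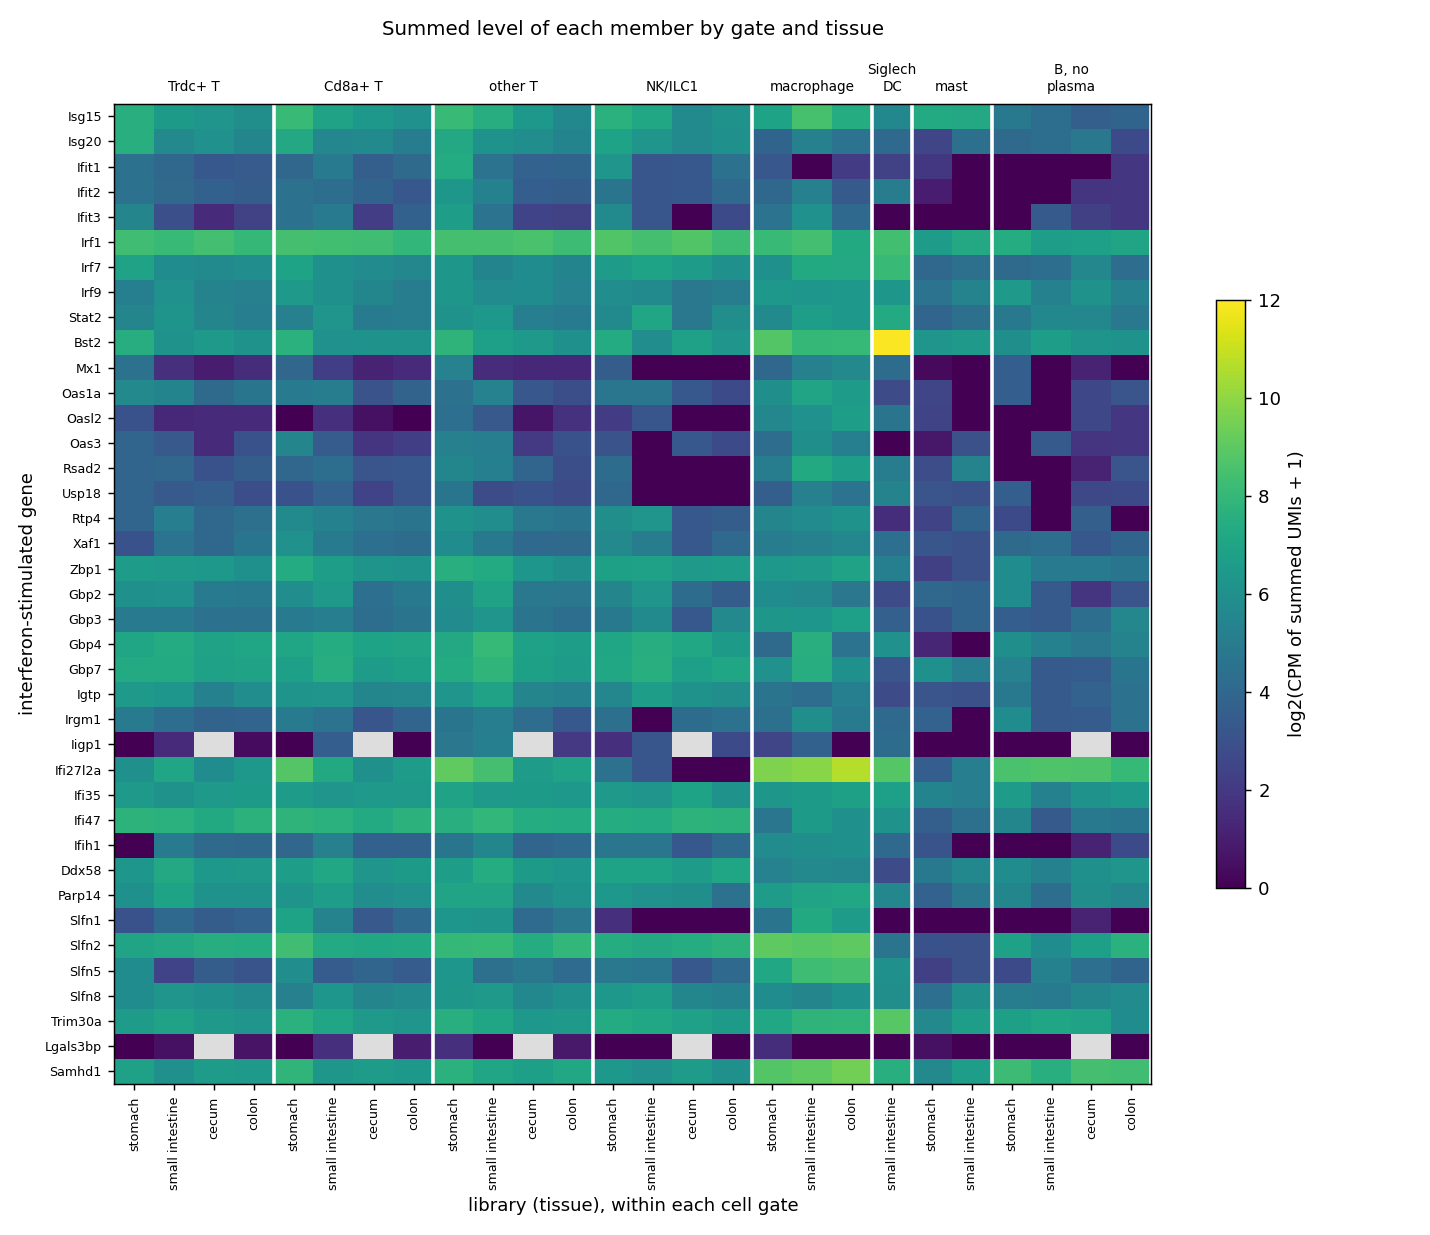
Summed level of each of the 39 members (vertical axis) in every library, within each cell gate (horizontal axis), as log2(CPM + 1) in colour; grey marks a gene that the cecum library did not list, and B cells are shown without plasma cells. Irf1 is bright in all T-cell columns, Bst2 peaks at 3857 CPM in the Siglech dendritic cells, and Ifit1 and Ifit3 are brightest in the other T cells of stomach.

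Among the effectors that bind viral RNA or block its translation, Ifit1 and Ifit3 were highest in stomach within other T cells, but not within Cd8a-positive cells. Ifit1, which binds RNA lacking a host cap, was at 164 CPM (81 UMIs) in other T cells of stomach, 22.5 CPM (12 UMIs) in small intestine, 12.5 CPM (40 UMIs) in cecum and 13.5 CPM (36 UMIs) in colon. Stomach was 12.1-fold above colon (interval 8.11–18.5), and the other 3 tissues lay close together. In Trdc-positive cells it was at 21.3, 15, 8.85 and 9.99 CPM, the stomach value resting on 3 UMIs, and in Cd8a-positive cells at 14.5, 29.3, 11.3 and 16.8 CPM, with stomach at 2 UMIs.

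Ifit3, its binding partner, was also highest in stomach in other T cells, at 101 CPM (50 UMIs), 22.5 CPM (12 UMIs), 4.39 CPM (14 UMIs) and 4.11 CPM (11 UMIs). Stomach was 24.5-fold (12.6–52.3) and small intestine 5.47-fold (2.21–13.7) above colon. A single stomach cell gave 35.8% of the Ifit1 UMIs and 32% of the Ifit3 UMIs of its sum. The intervals of these ratios do not cover such unevenness between cells. In Cd8a-positive cells Ifit3 was highest in small intestine (29.3 CPM) and lower in cecum than in colon (3.48 against 12.4 CPM, ratio 0.28, 0.116–0.584). A single colon cell gave 27.7% of the Ifit3 UMIs of that gate.

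Isg15, a ubiquitin-like modifier secreted and conjugated during antiviral responses, showed a broader gradient. Its level was 281, 178, 83.1 and 48.2 CPM in other T cells of stomach, small intestine, cecum and colon, each ratio to colon having an interval above 1. In Trdc-positive cells it was 192, 91.4, 74.3 and 60.2 CPM, and in Cd8a-positive cells 269, 119, 82.2 and 65.6 CPM. Stomach was highest and colon lowest in each of the 3 gates. At least 1 Isg15 UMI was found in 29.9% of other T cells of stomach and 9.92% of those of colon; their median depths were 2540 and 2657 UMIs.

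Irf7, the factor that amplifies type I interferon production, was above colon in all 3 gates of stomach and in 1 gate each of small intestine and cecum. It was at 121, 56.6, 51.3 and 58.5 CPM in Trdc-positive cells and at 80.7, 41.2, 56.2 and 41.9 CPM in other T cells. Stomach exceeded colon 2.06-fold (1.18–3.38) and 1.93-fold (1.31–2.79) in these gates, and 2.67-fold (1.53–4.36) in Cd8a-positive cells. Without the T cells with at least 2 UMIs of Ifit1 and Ifit3 the ratios were 1.68 (0.877–2.94), 1.51 (0.96–2.31) and 2.98 (1.71–4.89), so that 2 of the 3 intervals then held 1. In small intestine the interval held 1 in Trdc-positive and other T cells (0.968 and 0.984 of colon) and lay just above 1 in Cd8a-positive cells (1.39, 1.08–1.78). In cecum it lay above 1 in other T cells (1.34, 1.05–1.71).

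Gbp2, a GTPase that coats pathogen vacuoles and is strongly induced by interferon gamma, had the reverse emphasis. It was at 118 CPM in other T cells of small intestine against 62.6 in stomach, 27.3 in cecum and 26.2 in colon, and small intestine was 4.51-fold (3.16–6.43) above colon. The corresponding ratio was 3.09-fold (2.40–3.97) in Cd8a-positive cells (85.0 against 27.5 CPM) and 2.34-fold (1.86–2.97) in Trdc-positive cells (66.2 against 28.3 CPM). Cecum and colon differed by less than counting error in the 3 gates.

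Over the whole list, members at least 1.5-fold above colon were frequent in stomach T cells. Of the members with at least 20 UMIs in the 2 sums, 29 of 37 (78.4%) were higher in other T cells of stomach, where 13.9% of all 9482 genes were, and 0 were lower, against 23.9% of all genes. In Cd8a-positive cells 22 of 35 were higher (all genes 17.1%) and 0 lower (25.9%). In Trdc-positive cells 14 of 35 were higher (17.5%) and 2 lower (24.6%). The median log2 ratio of the members was 1.49, 1.06 and 0.39 in the 3 gates, beside -0.08, 0.00 and 0.00 over all genes. Sums of 50 cells limit the latter gates: the interval excluded 1 for 7 members in Trdc-positive cells, all of them higher.

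The leading members in other T cells of stomach were Mx1, Ifit3, Ifit1, Iigp1 and Ifit2. The transcript of Mx1, a GTPase gene, was 25.6-fold (8.52–104) above colon, with 19 against 4 UMIs. Iigp1, an immunity-related GTPase, was 8.77-fold (3.37–24.4) and Ifit2 7.71-fold (4.64–13.0) higher, beside Ifit3 and Ifit1. In Cd8a-positive cells of stomach the largest ratios belonged to Oas3, which makes the second messenger that activates RNase L, at 12-fold (3.92–31.2, 6 against 19 UMIs), then to the Schlafen genes Slfn1 (7.77-fold) and Slfn5 (5.62-fold), Isg20, an exonuclease (4.74-fold), and Ifi27l2a (4.69-fold, 3.54–6.13). In Trdc-positive cells they were Ifit3 (10.7-fold, 6 UMIs, 83.3% of them in 1 cell), Slfn5 (7.37-fold), Isg20 (4.28-fold), Isg15 (3.18-fold) and Bst2, a tether of budding virions (2.52-fold). No member was lower in stomach than in colon with an interval below 1 in any of the 3 gates. The T cells of the 2 tissues differed in subset markers. Among those with neither Ifit1 nor Ifit3, Cd8b1, the β chain of CD8, was found in 20.7% in stomach against 4.96% in colon. Cd4 was found in 10.2% against 1.89%. The part of subset make-up in the ratios within gates was not tested.

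Transcripts of other cell types differed beside these values. In other T cells of stomach, the 6 NK/ILC1 gate markers summed to 1690 CPM, against 842 CPM in colon. The 12 macrophage markers summed to 168 against 14.6 CPM, with C1qb and C1qc at 0 and Lyz2 at 101 CPM in stomach. Cd74 and H2-Aa, of antigen-presenting cells, stood at 1282 and 521 CPM in the same sum, against 8.98 and 4.86 CPM in colon. Mcpt2, of mast cells, stood at 182 against 0.374 CPM. Stomach macrophages held 8.71 CPM of Ifit1, below the 164 CPM of these T cells, but 825 CPM of Ifi27l2a, above their 529 CPM. Apart from these levels, the part of other cells' transcripts in the member ratios was not tested.

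Small intestine also exceeded colon, and Gbp2 was among the leading members in Trdc-positive and Cd8a-positive cells. In Trdc-positive cells 13 of 35 members were higher (all genes 14.4%) and 1 was lower (11.9%). In Cd8a-positive cells 24 of 35 were higher (15.3%) and 0 lower (15.1%), and in other T cells 25 of 35 were higher (17.6%) and 0 lower (17%). The median log2 ratios were 0.46, 0.68 and 1.28, beside 0.02, -0.00 and 0.00 over all genes.

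The Trdc-positive sums are the deepest of this tissue, with 1672 cells, and gave narrow intervals. Besides Gbp2, the largest ratios were those of Stat2 (72.7 against 34.0 CPM, 2.14-fold, 1.73–2.66), the RNA sensor Ifih1 (1.92-fold, 1.40–2.68), Irf9 (65.5 against 36.2 CPM, 1.81-fold, 1.47–2.24) and the RNA sensor Ddx58 (152 against 85.3 CPM, 1.78-fold, 1.55–2.05). Stat2 and Irf9 encode parts of the ISRE-binding complex. Samhd1, which depletes nucleotides (0.758 of colon, 0.643–0.893), Ifi35 (0.789) and Slfn2, which holds T cells in quiescence (0.867), were lower. In Cd8a-positive cells Gbp2, Ifih1 (2.95-fold), Oas3 (2.82-fold), Slfn1 and Oas1a (both 2.54-fold) led. In other T cells Iigp1 (11.9-fold, 4.97–31.4, 19 against 8 UMIs), Oas1a (6.19-fold, 3.11–12.5), Rsad2, which makes a chain-terminating nucleotide (5.60-fold, 2.76–11.5), Ifit3 and Oas3 (4.75-fold) led.

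Cecum and colon differed little over the list. In Trdc-positive cells 1 of 34 members was higher in cecum (all genes 9.79%) and 4 were lower (10.8%). In Cd8a-positive cells 2 of 35 were higher (8.99%) and 5 lower (8.18%), and in other T cells 4 of 35 were higher (7.66%) and 2 lower (6.78%). These shares are near the background and the median log2 ratios were 0.00, -0.06 and 0.16. Among single members, Isg20 and Irf1 exceeded colon with an interval above 1 in each gate, Irf1 by 1.32-fold (1.16–1.48), 1.27-fold (1.16–1.40) and 1.26-fold (1.15–1.38). Rsad2 (2.22-fold, 1.25–4.14) and Irgm1 (2.10-fold, 1.29–3.52) led in other T cells, with Isg15 (1.72-fold), Slfn5 (1.59-fold) and Irf9 (1.42-fold). In the Trdc-positive gate the list of higher members ended with Bst2 (1.28-fold), and in the Cd8a-positive gate Irf9 (1.33-fold) and Isg15 (1.25-fold) completed it. Ifi27l2a was lower in cecum in all 3 gates, at 0.689, 0.668 and 0.786 of colon. Further lower members were Oas3 (0.248, 2 UMIs), Igtp (0.657) and Ifi47 (0.739) in Trdc-positive cells, Oas1a (0.568), Slfn1 (0.575) and Irgm1 (0.591) beside Ifit3 in Cd8a-positive cells, and Oas3 (0.441), Slfn1 (0.659), Slfn2 (0.718), Slfn8 (0.759) and Samhd1 (0.775) in other T cells.

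**Figure D2:**
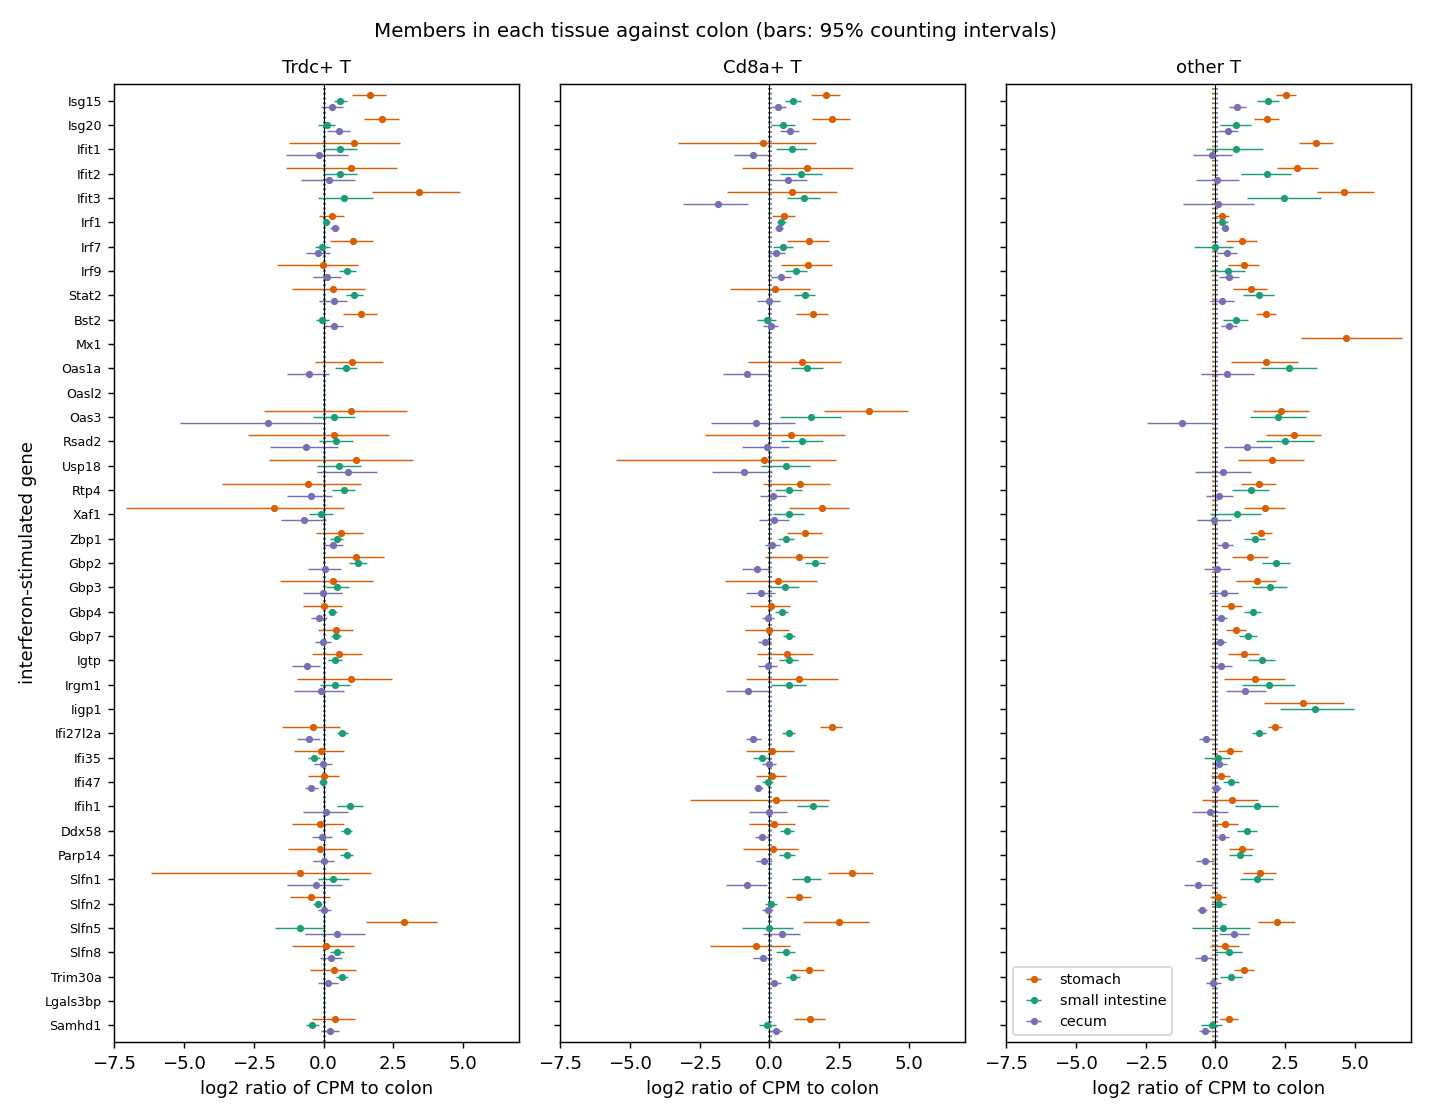
Log2 ratio of each member's CPM to colon (horizontal axis) in stomach, small intestine and cecum, in each of the 3 T-cell gates; points are ratios with 95% counting intervals, dotted lines the median over all genes, and members with under 20 UMIs or a count of 0 have no point. Stomach and small intestine points lie mainly right of 0, most clearly in other T cells, and cecum points scatter around it.

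Few T cells carried much of the stomach signal. T cells with at least 2 UMIs of Ifit1 and Ifit3 together were 14 of 274 in stomach (5.11%, exact interval 2.82–8.42), 35 of 2435 in small intestine (1.44%, 1–1.99), 23 of 3336 in colon (0.689%, 0.438–1.03) and 13 of 3372 in cecum (0.386%, 0.205–0.658). The stomach interval lies above those of the other 3 tissues, and those of small intestine and colon overlapped slightly. Within the Trdc-positive, Cd8a-positive and other gates, stomach held 2%, 4% and 6.32% and small intestine 1.14%, 2.22% and 1.8%, with overlapping intervals. After each cell was thinned to 1000 UMIs the shares were 4.01%, 0.616%, 0.240% and 0.151%. Exactly 2 UMIs were found in 12 of the 13 cecum cells and in 4 of the 14 stomach cells. The most loaded T cell, an other T cell of stomach, held 45 UMIs of the pair.

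Outside T cells, cells that met the same limit were found among NK/ILC1 cells of stomach (17 of 320, 5.31%, 3.12–8.37) and among macrophages of stomach (9 of 294, 3.06%) and small intestine (4 of 41, 9.76%, 2.72–23.1). Thinned to 1000 UMIs, these shares were 1.88%, 0.680% and 4.88%, against 4.01% in T cells of stomach; macrophages of stomach had a median of 4808 UMIs. The small intestine macrophages had no Ifit1 UMI and met the limit on Ifit3 alone. Among mast cells of stomach 4 of 1860 met it (0.215%). The 135 Siglech dendritic cells had none (upper limit of the share, from 3 counts, 2.22%). B cells met the limit in 0 of 82, 0 of 210, 1 of 585 and 0 of 185 cells. Their median depths were 1930, 10332, 1233 and 1942 UMIs, against 2565.5, 2325, 1757 and 3008 in T cells. The part of free RNA in these shares was not tested.

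**Figure D3:**
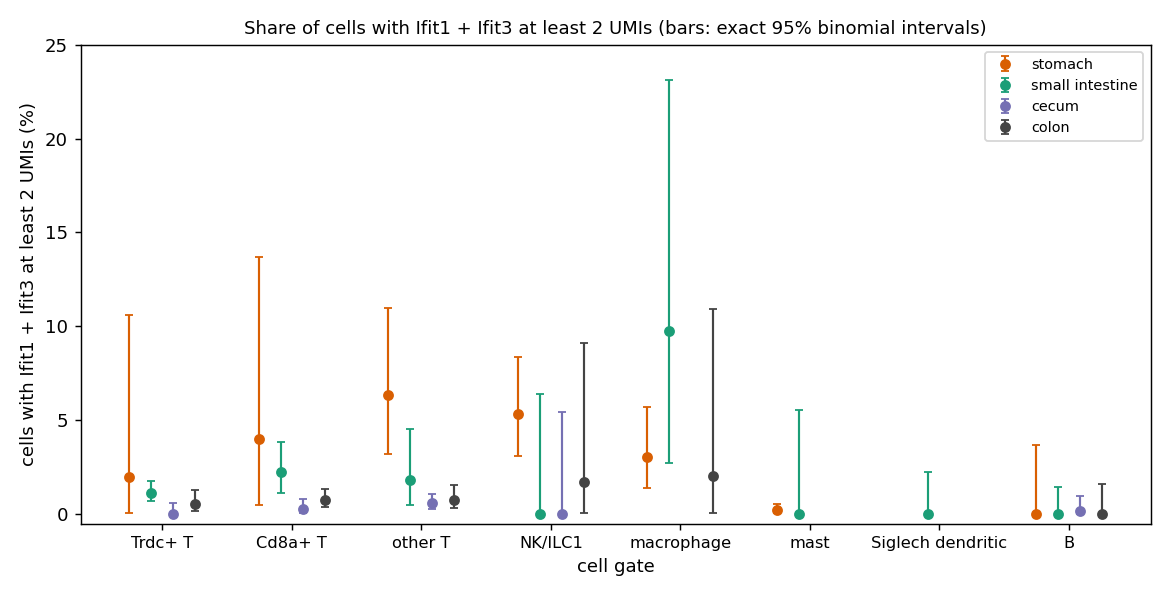
Share of cells with at least 2 UMIs of Ifit1 and Ifit3 (vertical axis, %) in each gate (horizontal axis) and library (colour), with exact 95% binomial intervals (for 0 cells, the limit from 3 counts). Stomach has the highest value in the T-cell gates and NK/ILC1 cells, but in each its interval overlaps that of small intestine. Its Trdc-positive and Cd8a-positive values rest on 1 and 2 of 50 cells, and the small intestine macrophage value of 9.76% on 41 cells.

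These T cells were spread over the lineages. In small intestine, 19 of the 35 carried Trdc (54.3%, 36.6–71.2), against 68.8% of T cells with neither transcript, and 8 carried Cd8b1, the β chain of the conventional CD8 dimer (22.9%, 10.4–40.1), against 6.03%. Cd4 was found in 5 of them (14.3%) against 3.46%. In cecum, 0 of 13 carried Trdc (upper limit 23.1%), against 15.2%, and 3 carried Cd8b1 (23.1%) against 4.41%. Cd8b1 was found in 21.4% against 20.7% in stomach, where 11 of 14 were other T cells (78.6%, 49.2–95.3), against 62.2% of cells with neither. In colon Trdc was found in 21.7% against 27.5%, Cd8b1 in 4.35% against 4.96%, Cd4 in 2 of 23 (8.70%, 1.07–28) against 1.89%, and Trac in 65.2% (42.7–83.6) against 82%.

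The cells chosen on Ifit1 and Ifit3 held most of the other members at raised levels in every tissue; the cells were chosen by 2 members, so these values are a description. Of 35 other members with enough UMIs, 28 (80%) were at least 2-fold higher than in T cells with neither transcript in all 4 libraries, where 82 of 12273 genes (0.668%) were. The median over members of the median fold was 5.74, and 0.73 over all genes. Usp18, the protease that removes ISG15 and dampens interferon receptor signalling, was 114-fold, 45.7-fold, 46.1-fold and 34.9-fold higher in stomach, small intestine, cecum and colon, from 6 to 23 UMIs. Mx1 was 32.7-fold to 73.6-fold higher from 1 to 17 UMIs, Rsad2 16.9-fold to 66.7-fold, Isg15 10.6-fold to 23.2-fold and Irf7 5.2-fold to 8.94-fold. Gbp2 was 3.27-fold to 12.1-fold higher. Irf1 had the lowest folds in stomach and small intestine, at 1.18-fold and 1.27-fold, and stood at 1.74-fold in cecum and 2.38-fold in colon. Irf9 and Gbp4 were under 2-fold in cecum (1.69 and 1.73), and Ifit2, Oas3, Oasl2 and Gbp3 had 0 UMIs in the 13 cecum cells.

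Counted cell by cell after thinning, the chosen T cells held a UMI of a median of 11, 8, 9 and 5 of the 35 other members in stomach, small intestine, cecum and colon, against 2 in T cells with neither in each library, 12 of the 13 cecum cells being deep enough. Their ranges overlapped, from 0 to 23 against 0 to 15 over the libraries. Their depth was close to that of the others (median 2673 against 2543 UMIs in stomach, 2207 against 2324.5 in small intestine, 1851 against 1753 in cecum, 3223 against 3009.5 in colon). Macrophage marker sums in the chosen cells were 51 against 134 CPM in stomach and 0 against 12.2 CPM in colon. Those sums held too few UMIs to compare, and cells meeting the macrophage gate had already been left out. Siglech dendritic marker sums were 102, 106, 244 and 286 CPM against 167, 212, 201 and 215 CPM in stomach, small intestine, cecum and colon. Mast-cell marker sums were 255, 59, 163 and 121 CPM against 199, 178, 174 and 204 CPM. In stomach, 27.8% of all member UMIs of T cells came from these 14 cells, against 7.07% in small intestine, 4.39% in colon and 1.83% in cecum. These shares include Ifit1 and Ifit3, by which the cells were chosen, with 78 and 53 UMIs in the 14 stomach cells. Part of each share therefore follows from the choice.

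Genes outside the list that stood highest in the same cells were also interferon targets. They were Ifit3b, Cxcl10, a chemokine for activated T cells (14.9-fold, 16.2-fold, 44.0-fold and 32.2-fold), Oasl1, Ifi214, the sensor Dhx58, Gbp10, Ifi213, Phf11c, Ifi209 and Ifit1bl1. Of the receptor chains, Ifnar2, of the type I receptor, was at 1.03, 1.03, 1.06 and 1.25. Ifngr1, of the interferon gamma receptor, was at 0.689, 1.17, 0.959 and 1.02. Ifnar1 was at 1.27, 0.894, 1.33 and 0.683, and Il10rb at 1.22, 1.44, 0.583 and 0.91. Ifngr2 was at 0, 1.57, 0 and 0.86. These last chains rested on 0 to 6 UMIs per library in the chosen cells. Ifng itself was at 0.738, 0.877, 0.29 and 2.01.

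**Figure D4:**
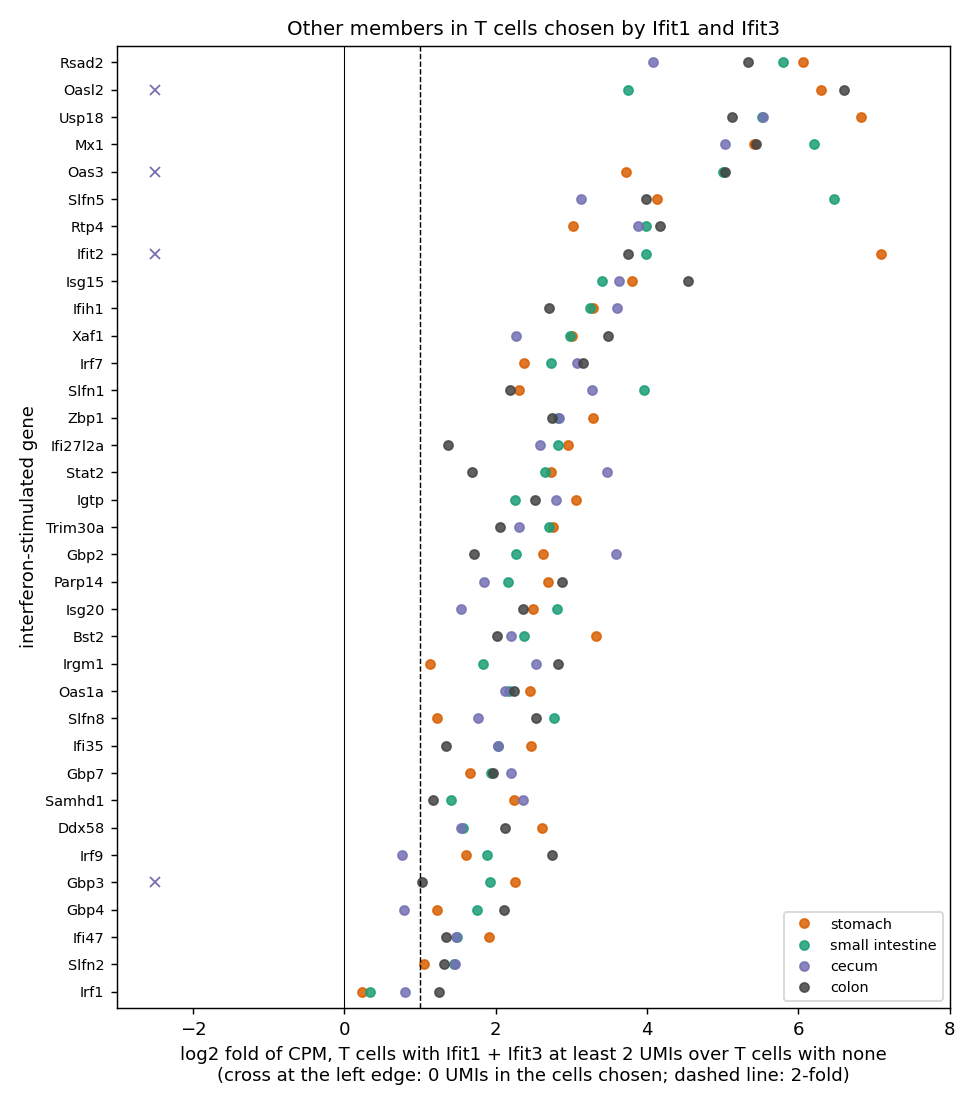
Log2 fold of each other member (vertical axis) in T cells with at least 2 UMIs of Ifit1 and Ifit3 over T cells with none, in the 4 libraries (colour); the dashed line is 2-fold and a cross marks 0 UMIs in the chosen cells. Points lie right of the line for 28 of 35 members in all 4 libraries, and Irf1 lies left of it in stomach, small intestine and cecum.

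Leaving out the chosen cells, an alternative added after seeing the data, changed stomach most. In other T cells of stomach 20 of 33 members then exceeded colon by 1.5-fold or more and 1, Ifit2, was that much lower. The median log2 ratio was 0.87. Of the 32 members whose interval lay above 1 there, 19 kept it, 9 had an interval that held 1 and 4 had too few UMIs for a ratio. Ifit1 (1.59-fold, 0.462–4.45) had to fall, since the cells were chosen by it. Ifit2, which the choice did not use, was at 0.441 of colon (0.0507–1.76) and Rsad2 at 2.29-fold (0.728–6.25), while Mx1 and Iigp1 had too few UMIs. Isg15 (3-fold, 2.18–4.10) and Ifi27l2a (3.20-fold, 2.64–3.87) kept intervals above 1. The share of all genes was not counted without the chosen cells. The 1.5-fold counts given without them, here and below, therefore have no background beside them.

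In Trdc-positive cells of stomach the count at least 1.5-fold higher fell from 14 to 9, and 2 of 7 members, Isg20 and Isg15, kept intervals above 1. In Cd8a-positive cells 14 of 15 did. In small intestine 18 of 18, 22 of 28 and 20 of 25 members kept theirs in the Trdc-positive, Cd8a-positive and other gates. Gbp2 stayed at 2.38-fold, 2.84-fold and 3.89-fold there, and Stat2 at 2.04-fold, 2.22-fold and 2.74-fold. Rsad2 in other T cells of small intestine fell from 5.60-fold to 2.03-fold (0.644–5.53, 6 UMIs), while Iigp1 moved from 11.9-fold to 45.6-fold (10.9–405, 18 against 2 UMIs). Slfn5 was lower than in colon in Trdc-positive cells without the chosen cells (0.294, 0.127–0.631), and 0.563 (0.3–1.04) with them. In Cd8a-positive cells of cecum Ifit1 turned from 0.671 (0.416–1.05) to 2.47-fold (1.31–4.69) of colon, where 1 cell had held 34 UMIs of the pair. The cells were chosen by Ifit1, so those left held at most 1 UMI of it. The median depth of this gate was 1825 UMIs in cecum and 3143.5 in colon. The 2.47-fold ratio therefore cannot be read as a tissue difference.

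The lineage contrasts across the 4 libraries can be tested, with the library as a block and edgeR's quasi-likelihood test, adjusted over all genes. Trdc-positive cells differed from other T cells in few members: 4 of 35 were lower (all genes 2.29%) and 1 was higher (1.89%). Slfn1 was lower by log2 -1.50 (SE 0.30, adjusted p = 0.00778), standing at 7.10, 16.3, 10.6 and 12.8 CPM in stomach, small intestine, cecum and colon, against 78.7, 73.1, 17.3 and 26.2 CPM. Slfn5 was lower by log2 -1.36 (SE 0.24, adjusted p = 0.00386) and also lower in each of the 4 libraries, at 56.8, 4.34, 10.6 and 7.71 CPM against 78.7, 20.6, 27.3 and 17.2 CPM.

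Ifi27l2a was lower by log2 -1.07 (SE 0.21, adjusted p = 0.00719) and Samhd1 by log2 -0.63 (SE 0.14, adjusted p = 0.0186). Oas1a, which activates RNase L, was higher by log2 0.97 (SE 0.26, adjusted p = 0.0459), at 49.7, 42.1, 16.8 and 24.3 CPM against 22.2, 39.3, 8.47 and 6.36 CPM. The last call was lost with DESeq2 and without the stomach, cecum or colon library. The 4 lower calls fell to 2 without small intestine and to 1 without colon.

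The other lineage contrasts made no member call. Trdc-positive against Cd8a-positive cells had 0 higher (all genes 0.264%) and 0 lower (0.127%), with 2 and 3 of 35 at an unadjusted p under 0.05 and 0 by DESeq2. Without the stomach library 1 was lower. Cd8a-positive against other T cells had 0 higher (0.548%) and 0 lower (1.2%), with 0 and 9 at an unadjusted p under 0.05 and 0 by DESeq2. The median log2 fold change was -0.24 beside -0.00 over all genes. Without the stomach library 4 were lower.

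Macrophages, mast cells and B cells differed from T cells in more members. Macrophages, compared in stomach, small intestine and colon, had 18 of 37 members higher (all genes 17.6%) and 5 lower (16.6%), by the same edgeR test. Oasl2 stood at 45.6, 67.1 and 100 CPM in macrophages of stomach, small intestine and colon against 14.2, 2.31 and 1.05 CPM in T cells (log2 4.95, SE 0.73, adjusted p = 3.46e-05). Slfn5 was higher by log2 4.20 (SE 0.60), Ifi27l2a by 3.07 (SE 0.50), Mx1 by 2.92 (SE 0.89), Bst2 by 1.80 (SE 0.61), Samhd1 by 2.65 (SE 0.29), Rsad2 by 2.49 (SE 0.68) and Oas1a by 2.15 (SE 0.40). Ifit1 was the main exception, lower by log2 -3.09 (SE 0.56, adjusted p = 0.00029), with 8.71, 0 and 3.24 CPM in macrophages against 111, 18.6 and 13.9 CPM in T cells. Ifi47 (-1.61), Isg20 (-1.79), Ddx58 (-0.98) and Igtp (-0.96) were lower too. The 18 higher calls fell to 8 without the colon library, and the 5 lower to 1 without stomach. Without the T cells chosen by Ifit1 and Ifit3, 21 members were higher and 2 lower. In stomach T cells, 78 Ifit1 UMIs came from the 14 chosen cells, so the lower Ifit1 level cannot be read as a contrast with T cells in general.

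Mast cells, compared in stomach and small intestine, held 787 and 1078 CPM of the 37 members in sum. Of 37 members 22 were lower than in T cells (all genes 10.3%) and 0 higher (8.73%), with 0 higher at an unadjusted p under 0.05 and by DESeq2. Ifit3 and Slfn1 had 0 UMIs in both mast-cell sums. Gbp4 was lower by log2 -6.10 (SE 0.86, adjusted p = 4.89e-05), Zbp1, a sensor of Z-form nucleic acid, by -4.48 (SE 0.74), and Slfn2 by -4.38 (SE 0.55). Isg15 led the member UMIs of mast cells, level with Irf1 in small intestine, at 161 and 149 CPM against 262 and 104 CPM in T cells, and did not pass the test. Without the stomach library 2 members were lower.

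In B cells 14 of 37 members were lower (all genes 12.3%) and 2 higher (10.8%). Slfn1 fell to at most 1 UMI in each B-cell sum, Ifit1 was lower by log2 -4.46 (SE 0.63, adjusted p = 3.09e-05), Gbp7 by -3.11 (SE 0.41), Ifi47 by -2.75 (SE 0.29) and Isg15 by -2.70 (SE 0.41). The higher members were Ifi27l2a (log2 1.63, SE 0.45, adjusted p = 0.0118) and Samhd1 (1.45, SE 0.27, adjusted p = 0.000486); without cecum 1 member was higher. In small intestine 176 of the 210 cells in the B gate carried at least 3 plasma-cell markers; with such cells left out, a choice made after seeing the data, the counts were again 14 and 2.

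NK/ILC1 cells had 1 of 37 lower (all genes 0.567%) and 0 higher (0.651%; 0 at an unadjusted p under 0.05 and 0 by DESeq2). The lower one was Ifi27l2a (log2 -3.95, SE 0.67, adjusted p = 0.00403), at 21.4, 8.36, 0 and 0 CPM against 429, 154, 76.8 and 96.4 CPM in T cells. Siglech dendritic cells, named for a surface lectin of plasmacytoid dendritic cells, were present with at least 20 cells in small intestine only, so this lone sum was assumed to vary like the others. They had 5 members higher (8.28%) and 6 lower (6.01%). Bst2, a marker of plasmacytoid cells, made up 58.4% of their member UMIs, at 3857 against 70.9 CPM in T cells (log2 4.63, SE 0.84, adjusted p = 0.000797). Oasl2 (3.44), Irf7 (2.16, at 284 against 57.0 CPM), Trim30a (1.98) and Stat2 (1.34) were higher. Ddx58 (-4.32), Gbp7 (-4.22), Igtp (-3.72), Gbp2 (-3.39), Slfn2 (-2.43) and Ifi47 (-1.51) were lower. Without cecum or colon 3 members were higher.

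**Figure D5:**
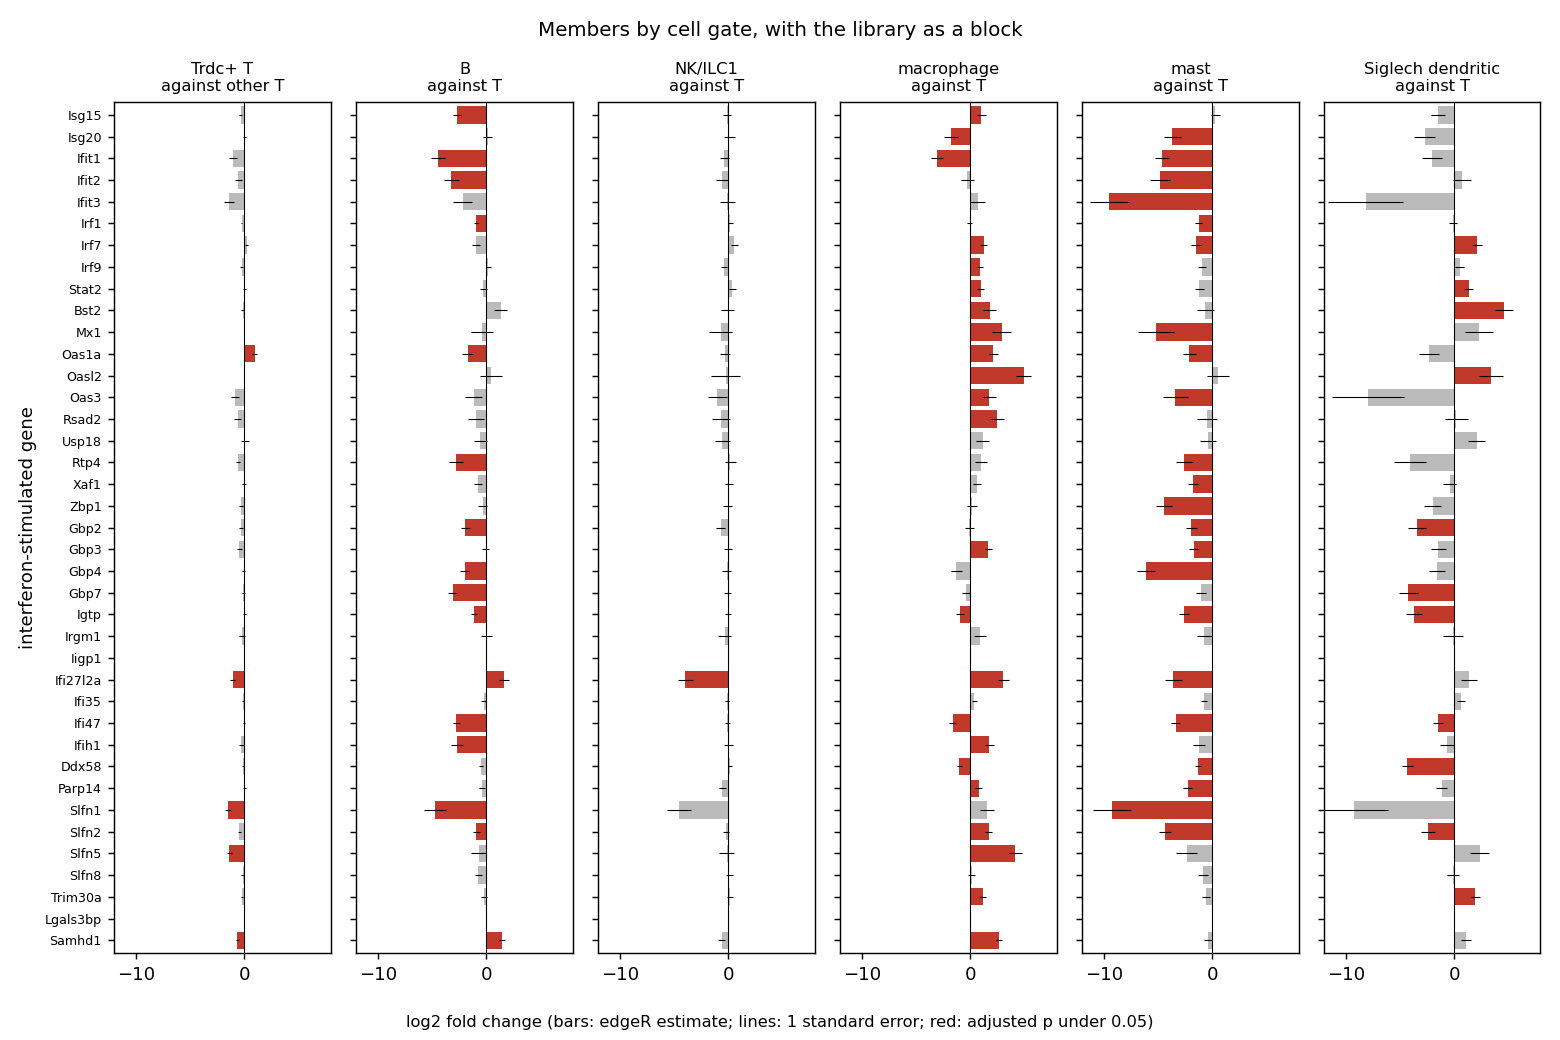
Log2 fold change of each member (horizontal axis) between cell gates, from edgeR with the library as a block; lines are 1 standard error and red bars have an adjusted p under 0.05, with the Siglech dendritic cells present in 1 library; the size of a bar for a gene at 0 UMIs (Ifit3 and Slfn1 in mast cells) depends on the prior count. Red bars point right for 18 members in macrophages, left for 22 in mast cells, and 1 is red in NK/ILC1 cells.

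The rest of the pathway was read from 88 further genes. Among the ligands only Ifng, the gene of interferon gamma, had at least 20 UMIs in a T-cell comparison. It stood at 993, 60.1, 151 and 114 CPM in Trdc-positive cells of stomach, small intestine, cecum and colon, at 915, 46.9, 79.6 and 31.4 CPM in Cd8a-positive cells and at 686, 333, 194 and 211 CPM in other T cells. Stomach was highest in each gate, 8.68-fold (7.11–10.5), 29.2-fold (22.9–37) and 3.26-fold (2.84–3.74) above colon. Small intestine was below colon in Trdc-positive cells (0.525, 0.449–0.614) and above it in other T cells (1.58-fold, 1.33–1.88). A link between the Ifng level and the member levels was not tested. NK/ILC1 cells held more Ifng than T cells (log2 1.65, SE 0.30, adjusted p = 0.00679 by edgeR), and Cd8a-positive cells held less than other T cells (log2 -1.65, SE 0.39, adjusted p = 0.0423).

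The interferon gamma receptor chains were lower in small intestine than in colon: Ifngr1 was at 0.523, 0.470 and 0.565 of colon and Ifngr2 at 0.415, 0.303 and 0.285, each with an interval below 1. Ifnar2 was at 0.828, 0.870 and 0.824 there, with only the Trdc-positive interval below 1. In macrophages, 4 of 5 receptor genes were higher than in T cells by edgeR (all genes 17.6%): Ifngr2 (log2 3.52), Ifnar2 (1.71), Ifnar1 (1.19) and Il10rb (1.09). Socs1, an inhibitor of Janus kinases, had 0 UMIs in the 50 Cd8a-positive cells of stomach against 109 CPM in colon, at least 5.02-fold lower against a floor of 3 counts. Of the 52 other interferon targets, 41 had enough UMIs in other T cells and 29 were at least 1.5-fold higher in stomach (all genes 13.9%) and 28 in small intestine (17.6%), with 0 lower in both. In cecum 5 of 42 were higher (7.66%) and 3 lower (6.78%), near the share of all genes. Cxcl10 was 12.7-fold (9.38–17.5) above colon in other T cells of stomach. Ifitm3, which blocks viral entry, was at 80.7 CPM there and at 1774 CPM in stomach macrophages, where this gene was higher than in T cells across libraries (log2 7.5 by edgeR).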

How the data were processed

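The authors deposited, per library, a matrix of UMI counts with gene symbols and barcodes; the values were whole numbers and were used as raw counts. Cell Ranger and Seurat 3.0.0 with GRCm38 (mm10) are named in the submitters' processing notes. The members, lists and tests were chosen with earlier results of these data known. CPM are relative to the summed UMIs of listed symbols, which hold no ribosomal protein or mitochondrial genes. Intervals are 95% exact (Poisson, conditional binomial, Clopper-Pearson) and cover counting error only. Those of levels and ratios take each UMI as independent and leave out the spread between cells. A cell meeting more than 1 gate was left out, in place of a doublet caller. Gates with under 20 cells in a library gave no value. Tissue ratios needed 20 UMIs in the 2 sums; called means 1.5-fold. Gate contrasts used edgeR 4.0.16 (R 4.3.3; filterByExpr, TMM, quasi-likelihood, library as block) with Benjamini-Hochberg adjustment over all genes and a threshold of 0.05; the printed SE was derived as the fold change over the square root of F. DESeq2 1.42.0 was an alternative. Both calculations were tested on simulated counts. Given in full were Ifit1, Ifit3, Isg15, Irf7 and Gbp2; in each comparison, the 5 members with the largest ratio in each direction among those whose interval excluded 1, or up to 10 past the adjusted p; outside the list, the 10 genes highest in the cells chosen by Ifit1 and Ifit3, with the pathway genes. Further pathway genes and alternatives that remove cells were chosen after seeing the data. Python 3 libraries did the sums, intervals and plots. Promoter entries for 8 members were not used here.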

Additional observations from a re-analysis of the deposited data

Results flagged for a closer look

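Cells that entered no gate were not part of any comparison. In the stomach library, 6 of 221 such cells (2.71%, exact interval 1–5.82) carried at least 2 UMIs of Ifit1 and Ifit3, above the 1.36% that a count of 0 allows. In small intestine 3 of 75, in cecum 2 of 101 and in colon 1 of 64 did, at or under the corresponding limits of 4%, 2.97% and 4.69%. The share was larger in small intestine (4%, 0.833–11.2) than in stomach, and the intervals of all libraries overlapped that of stomach. No difference between tissues is shown. What these cells are was not tested.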

How the results depend on the processing

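Of 330 alternative values over 39 results, 281 stayed within 1.5 times the count or within the interval of the value given, and 49 did not; the cause was not tested. No paired analysis was possible because no group has a second library; the library is the block of the gate contrasts. Without the T cells chosen by Ifit1 and Ifit3, 9 members were higher in Trdc-positive cells of stomach, 5 in Cd8a-positive cells of cecum, 1 was lower in other T cells of stomach and in Cd8a-positive and other T cells of small intestine, 2 were lower in Trdc-positive cells of cecum, and 2 were lower in macrophages. With 2 UMIs required for Trdc and Cd8a, 1 member was lower in Cd8a-positive cells of stomach, 0 in Trdc-positive cells of small intestine, 2 were higher in Trdc-positive and in other T cells of cecum, and 2 were lower in Cd8a-positive against other T cells. With cells of at least 2000 UMIs, 1 was lower in Cd8a-positive cells of stomach, and 0 were higher and 7 lower in Trdc-positive cells of cecum. With mixed cells kept, 0 were lower in Trdc-positive cells of small intestine and 2 higher in those of cecum. TMM factors left 1 higher in Cd8a-positive cells of cecum, and 3 UMIs of Cd3 left 1 lower in its other T cells. No share of all genes is given for the tissue counts at these altered settings, so they cannot be read against a background. The shares of T cells with Ifit1 and Ifit3 were 10.2%, 3.98%, 2.55% and 3.24% (stomach, small intestine, cecum, colon) at 1 UMI; at 3 UMIs small intestine had 0.821% and cecum 0.0297%; thinned cells gave 0.616%, 0.151% and 0.240% in small intestine, cecum and colon. In the gate contrasts, no filter gave 1 member lower in Trdc-positive against Cd8a-positive cells, 2 in Cd8a-positive against other T cells and 2 in NK/ILC1 cells. DESeq2 gave 0 higher in Trdc-positive against other T cells, 2 lower in NK/ILC1 cells, 3 lower in macrophages and 3 higher in Siglech dendritic cells; DESeq2 size factors gave 3 lower in macrophages. Leaving out 1 library in turn gave 0 to 1 lower (Trdc-positive against Cd8a-positive), 0 to 1 higher and 1 to 4 lower (Trdc-positive against other), 0 to 4 lower (Cd8a-positive against other), 1 to 2 higher (B), 8 to 20 higher and 1 to 5 lower (macrophage), 2 to 23 lower (mast) and 3 to 7 higher (Siglech dendritic). Stomach T-cell sums of 50 cells and single members with under 20 UMIs are limited by depth.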

Other observations

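Lgals3bp, a secreted lectin-binding glycoprotein, was close to absent in these cells: the T-cell sums held 1 UMI in stomach, 5 in small intestine and 9 in colon, and the macrophage sums 3, 0 and 0. It therefore entered no ratio. Iigp1 was listed at 13, 42 and 9 UMIs in T cells of stomach, small intestine and colon (16.8, 6.46 and 0.789 CPM), with 19 of the 42 in the 222 other T cells of small intestine.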
